A study of Mus musculus with 3 samples.

Results

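Ribosomal protein genes encode the protein parts of the small (Rps) and large (Rpl) ribosomal subunits. The members described here are the gene symbols that begin with Rps or Rpl and a digit, without pseudogene symbols ending in -ps and without the kinase genes Rps6k, and with at least 20 UMIs per 1000000 (UPM) in 1 or more libraries. Of 97 rows with such a symbol, 5 pseudogene and 10 kinase rows were left out and 3 rows (Rpl10l, Rpl39l and Rpl3l) were under the minimum. The nearest below it, Rpl39l, reached 6.56 UPM in its highest library, and the nearest above it, Rps19bp1, 32.3 UPM. This left 79 members, 33 Rps and 46 Rpl, of 32285 genes in all. The symbol rule takes in Rps19bp1, which encodes a binding partner of RPS19 and not a subunit, and Rps27rt, a retro-copy of Rps27. It leaves out, among others, Rplp0, Rplp1, Rplp2, Rpsa, Fau and Rack1, which are described as a list of their own.

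The study profiled lymphocytes of lungs of GFI1B-GFP mice (perfused, then digested), in which a green fluorescent protein reports use of the gene for the repressor GFI1B, with 10x Chromium 3' single-cell libraries. All 3 sorts began from live cells with CD45, CD90.2 and IL-7R and without lineage markers (lin-), the phenotype of innate lymphoid cells (ILC). The IL-18R+ pool mixes 2 sorts whose cells cannot be told apart, 1 of IL-18R+ CD103+ GFP- and 1 of IL-18R+ CD103- GFP+ phenotype. The second library is labelled IL-18R- CD103- GFP-, and the third is IL-18R- ST2+. The sources used here do not state age, sex, strain background, treatment or how many animals were pooled. With 1 library per group there is no replicate check and no test, and every interval below is a 95% interval of counting error or of sampling cells within 1 library.

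The kept cells numbered 1655 in the pool, 1872 in the IL-18R- CD103- GFP- labelled library and 1611 in the IL-18R- ST2+ library, with 8970571, 9598728 and 7891960 UMIs and medians of 4930, 4768 and 4568 UMIs per cell. Transcripts of Il18r1 went against 1 library label, and those of Cd3e against the lineage-negative sort. Il18r1 stood at 663 UPM in the pool and at 592 UPM in the IL-18R- CD103- GFP- labelled library, against 15.7 UPM in the IL-18R- ST2+ library, so the second library is called labelled throughout. Itgae, the CD103 gene, stood at 99.8, 3.44 and 2.79 UPM in the 3 libraries in the above order, low in the library labelled CD103-. Cd3e, a T cell receptor complex gene, had a UMI in 71.1% of pool cells and 84.2% of cells in the IL-18R- CD103- GFP- labelled library, against 2.67% in the IL-18R- ST2+ library, so both former libraries hold many T cells. Gfi1b had 0 UMIs in all 3 libraries. Only 1 cell barcode was shared between libraries, by the pool and the IL-18R- CD103- GFP- labelled library.

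Ribosomal proteins are made in near-equal amounts and assembled with ribosomal RNA in the nucleolus. Most of their mRNAs begin with a 5' terminal oligopyrimidine (TOP) tract, a C followed by further C and T bases, through which mTOR signalling and LARP1 control their translation and stability together. Resting naive T cells keep a large pool of such mRNAs whose translation increases on activation, and a few members have paralogs whose use differs between tissues.

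The start of each gene is shown because the TOP tract is the sequence that the family shares and that the selection did not use. In the RefSeq promoter table on GRCm38.p6, 60 of the 79 members were found by symbol. The annotated first base was a C followed by at least 4 pyrimidines in 13 of these 60 members (21.7%) and in 800 of 26965 other genes (2.97%). A run of at least 8 pyrimidines lying within 10 bases of the start was present in 21 members (35%) and in 9.19% of other genes, and a run of at least 5 in 36 members (60%) and 39.7% of other genes. Runs were sought on the coding strand only, and annotated starts can lie some bases away from those used in these cells. The 30 bases below run from 15 before the annotated start, and the capitals mark the longest pyrimidine run among them that lies at least partly within 10 bases of it, the first where several are equally long. The members shown are a selection of those named below. Departing members not shown include Rpl5, Rps15 and Rpl36al, whose longest runs were 3, 3 and 4 bases. Rps27 and, for comparison, Rps18 (chr3:90213634-90213663 and chr17:33955651-33955680, both minus strand) carry a tract at the annotated start. Rpl12, Rpl13a and Rpl22l1 (chr2:32961697-32961726, plus; chr7:45128731-45128760, minus; chr3:28805493-28805522, plus) have a run just after it. Rps27rt and Rps27l (chr9:114982725-114982754, minus, and chr9:66946071-66946100, plus) are the copies of Rps27, and the former also has a C and pyrimidines at its annotated start. Rpl10, Rpl7l1 and Rps19bp1 (chrX:74270801-74270830, plus; chr17:46782642-46782671, minus; chr15:80264292-80264321, minus) show only short runs in this window.
Rps27: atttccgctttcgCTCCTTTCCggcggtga
Rps27rt: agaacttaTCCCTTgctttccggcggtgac
Rps27l: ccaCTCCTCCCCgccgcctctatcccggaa
Rps18: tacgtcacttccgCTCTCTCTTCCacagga
Rpl12: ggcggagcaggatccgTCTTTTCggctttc
Rpl13a: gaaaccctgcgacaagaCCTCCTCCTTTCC
Rpl22l1: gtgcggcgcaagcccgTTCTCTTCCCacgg
Rpl10: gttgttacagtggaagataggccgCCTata
Rpl7l1: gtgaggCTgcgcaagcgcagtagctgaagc
Rps19bp1: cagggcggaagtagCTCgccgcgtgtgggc

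The 79 members lie on 19 chromosomes by the GENCODE M21 annotation of GRCm38, with 13 of them on chromosome 7. Together they took up 22.8% of all UMIs in the pool, 26% in the IL-18R- CD103- GFP- labelled library and 29.2% in the IL-18R- ST2+ library. A member's level is the UMI count of its 3' tags, which is not divided by gene length because each molecule is tagged once. The mean over the 3 libraries was at least 1000 UPM for 70 members and at least 100 UPM for 77. The 10 highest members were Rps24, Rps29, Rps27, Rpl37a, Rpl39, Rpl13, Rps21, Rpl23, Rps28 and Rpl41, from a mean of 8922 UPM for Rps24 down to 5236 UPM for Rpl41. The 3 lowest were Rps27l at 142 UPM, Rpl7l1 at 37.7 UPM and Rps19bp1 at 26.4 UPM. The median member had a UMI in 98.9%, 99.6% and 99.6% of cells of the 3 libraries in the above order, while the least detected member, Rps19bp1, had one in 14.4%, 13.6% and 6.83%.

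Cells differed widely in how much of their RNA was ribosomal protein mRNA. The median share of a cell's UMIs in member genes was 22.9% (22.7 to 23.2) in the pool, 23% (22.7 to 23.3) in the IL-18R- CD103- GFP- labelled library and 29.6% (29.3 to 29.8) among IL-18R- ST2+ cells. The medians of the first 2 libraries therefore lay within each other's intervals, and that of the ST2-sorted cells lay above both. The spread differed more. The 5th to 95th percentile of cells spanned 9.8% to 30.6% of the UMIs in pool cells. They ran from 14.9% to 40.9% in the IL-18R- CD103- GFP- labelled library and, in the IL-18R- ST2+ library, from 21.7% to 37.2%. Myeloid, B, stroma and endothelium gated cells made up 122, 23 and 18 cells of the 3 libraries, and without them the medians were 23.15%, 23.1% and 29.6%.

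Cells were gated on marker UMIs that include no member gene. Gamma delta T cells, which carry the delta chain transcript Trdc and no Trac, had a median share of 22.9% (22.7 to 23.3) in 706 pool cells and 23% (22.7 to 23.4) in 1223 cells of the IL-18R- CD103- GFP- labelled library. Alpha beta T cells, with Trac and no Trdc, had 24% (23.2 to 25.4) in 172 pool cells and 30.8% (26.8 to 36.1) in 90 cells of the IL-18R- CD103- GFP- labelled library. ILC2, CD3-low cells with Il1rl1 (the ST2 gene) and Gata3 (the master regulator of type 2 lymphocytes), had 29.3% (29 to 29.7) in 1157 cells of the IL-18R- ST2+ library. The few ILC2-gated cells of the other libraries had 25% (22.9 to 27.8) in 11 pool cells, under the interval of the IL-18R- ST2+ library. They had 27.5% (24.9 to 30.1) in 12 cells of the IL-18R- CD103- GFP- labelled library. The IL-18R- ST2+ library held 9 gamma delta T cells, at 32.1% (20.5 to 34.1), 6 of them with a UMI of Ccr7, described below. Lineage and library therefore cannot be told apart in the level of the ILC2. ILC1 and NK cells stood at 21.6% (42 pool cells) and 18.8% (25 cells of the IL-18R- CD103- GFP- labelled library), and ILC3 at 18% (26 cells of that library). CD3-negative cells with Il18r1 and the progenitor factor Tcf7 had 22.8% (116 pool cells) and 20.4% (58 cells).

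Among the pool's gates, cells outside the lymphoid lineages had the lowest median shares and B cells the highest. Stroma and endothelium gated cells had a median share of 5.55% (5.28 to 6.27, 53 cells), myeloid cells 8.73% (6.29 to 15.7, 48 cells) and B cells 29.7% (29 to 33, 21 cells). Below a share of 10% lay 84 pool cells, of which 53 were gated as stroma and endothelium and 26 as myeloid.

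**Figure D1:**
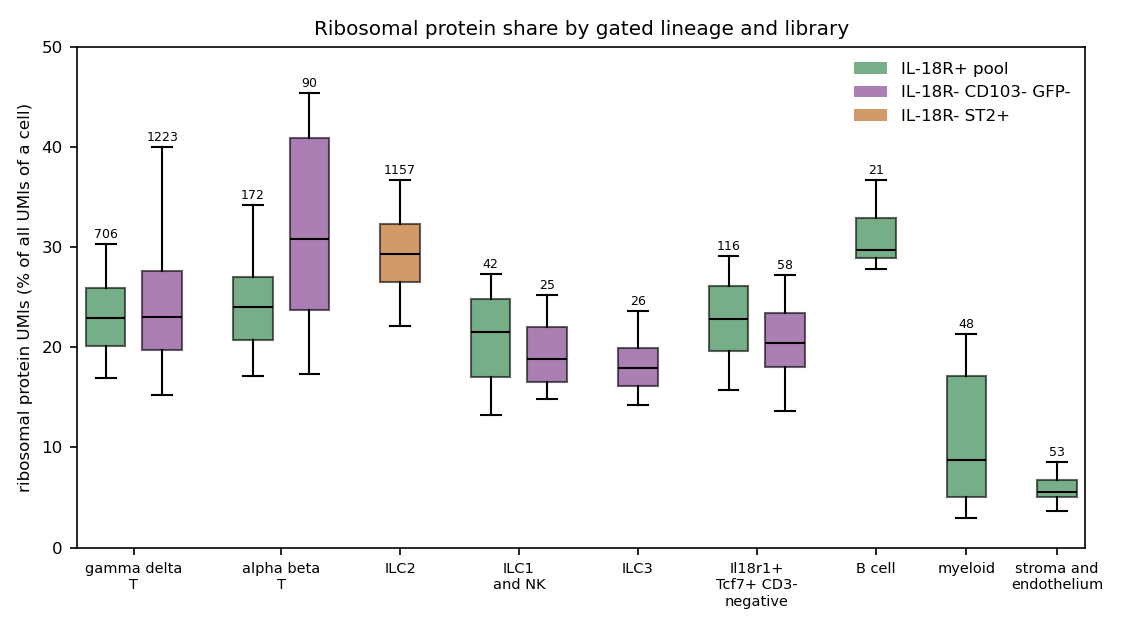
Share of each cell's UMIs in the 79 ribosomal protein genes (y axis, percent) by marker-gated lineage (x axis) and library (colour), for gates with at least 20 cells. Boxes span the quartiles with the median as a line, whiskers the 5th to 95th percentile, and numbers are cells; the medians of the alpha beta T cells of the IL-18R- CD103- GFP- labelled library (30.8%) and of the ILC2 (29.3%) lie above both gamma delta T medians, and stroma and endothelium at a median of 5.55% lie lowest.

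The long upper tail of the IL-18R- CD103- GFP- labelled library held most of its cells with a transcript of Ccr7, the receptor that guides lymphocytes into lymph nodes. A share of at least 35% was reached by 250 of its cells (13.4%), by 30 pool cells (1.81%) and by 185 cells (11.5%) of the IL-18R- ST2+ library. This limit and the split that follows were chosen after the shares had been seen. Of the 250 cells, 167 (66.8%) had a Ccr7 UMI, against 13.7% of all kept cells of that library, and so did 24 of the 30 pool cells, against 7.07% of all pool cells. Most pool cells with a Ccr7 UMI were nonetheless outside this tail, 93 of 117 under 35%, as were 89 of 256 in the second library. In the IL-18R- ST2+ library only 3 of the 185 cells had one. By gate, 149 of the 250 cells were gamma delta T, 38 alpha beta T and 63 in no gate.

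**Figure D2:**
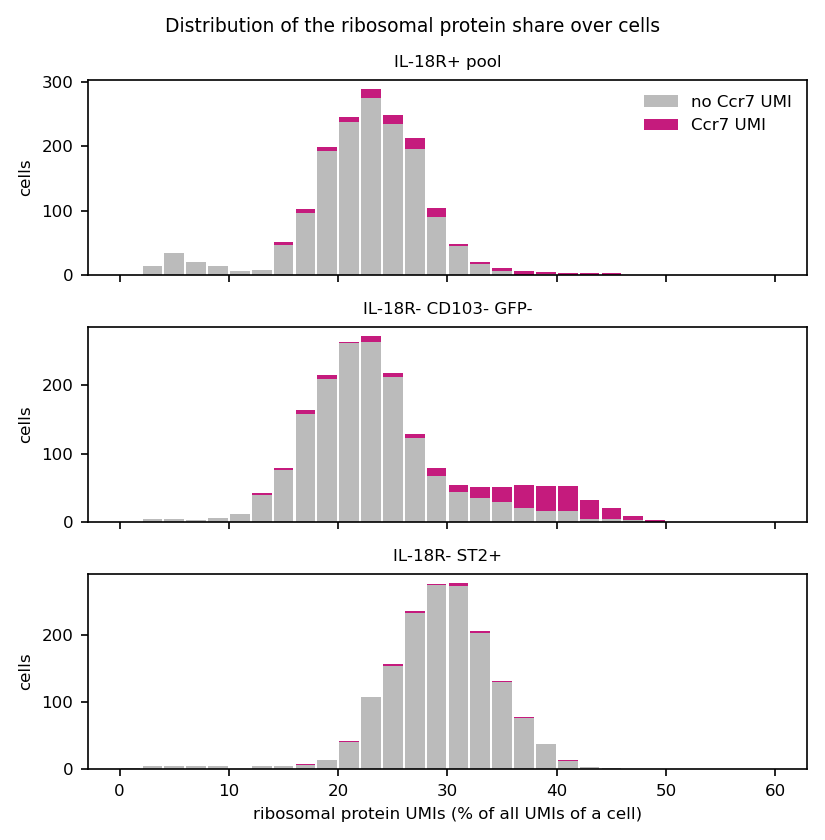
Number of cells (y axis) by ribosomal protein share of the cell's UMIs (x axis, percent, bins of 2), one panel per library. Cells with a Ccr7 UMI (magenta) are stacked on cells with none (grey); in the IL-18R- CD103- GFP- labelled library they make up most of the part at or above 35%, 167 of 250 cells.

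Within the gamma delta T gate of the IL-18R- CD103- GFP- labelled library, the 143 cells with a Ccr7 UMI had a median share of 37.7% (36.8 to 39), and the 1080 cells with none had 22.3% (21.9 to 22.7). In the alpha beta T gate of the same library the medians were 42.2% (38.8 to 43.6) in 31 cells and 24.9% (23.2 to 27.9) in 59 cells. The intervals did not overlap in either gate of this library. In the pool few T cells had a Ccr7 UMI, and the intervals were wide: 32.3% (22.9 to 43.1) in 19 alpha beta T cells against 23.7% (23 to 24.8) in 153, which overlap, and 36.8% (23.5 to 38.6) in 9 gamma delta T cells against 22.9% (22.6 to 23.2) in 697.

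Cells with a Ccr7 UMI were also more deeply sequenced, with a median of 6870 against 4505 UMIs in the gamma delta T gate of the IL-18R- CD103- GFP- labelled library. With each cell thinned to 2000 UMIs and the transcript scored on the thinned counts, the medians were 38.2% (82 cells) and 22.6% (1128 cells), with 13 shallower cells of the gate left out. Among cells of 4000 to 6000 UMIs they were 35.9% (30 cells) and 22.4% (638 cells), and among those of 6000 to 8000 UMIs 37.8% (78 cells) and 25.6% (100 cells). The cells with a Ccr7 UMI had the higher median in each of these depth ranges. Across all cells of this gate, share and depth had a Spearman rho of 0.43 over 1223 cells, against 0.16 in the pool's gamma delta T gate and 0.01 in the ILC2 gate. It was highest, 0.80, in the 90 alpha beta T cells of the IL-18R- CD103- GFP- labelled library, against 0.27 in 172 of the pool. Among those 90 cells, median depth was 8998 UMIs with a Ccr7 UMI and 5668 with none. On thinned counts their median shares were 42.1% (19 cells) and 26.7% (71 cells). The part of depth in the alpha beta T shares was not tested.

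The gamma delta gated cells with a Ccr7 UMI in that library also differed from the others of the gate in genes picked after the data were seen. Ccl5, a chemokine of memory and cytotoxic lymphocytes, stood at 7708 UPM against 1145 UPM, and Ly6c2, a memory T cell surface marker, at 1009 against 132 UPM. Lef1, a factor of naive and central memory T cells, stood at 250.4 against 66 UPM, and S1pr1, the receptor for exit into blood and lymph, at 417 against 78.8 UPM. Trdv4, a delta chain variable segment, stood at 10.8 against 1106 UPM and Il17a at 1.97 against 550.02 UPM. Cd8b1, a chain of the CD8 co-receptor of alpha beta T cells, stood at 38.5 against 0.99 UPM. B cell, myeloid and endothelial genes were near 0 in the cells with a Ccr7 UMI: Cd79a and Cdh5 had 0 UMIs and Lyz2 had 1. What part these identity genes and the gate have in the share was not tested, nor was that of doublets.

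Cells were also split on cytokine and cycling genes. Gamma delta T cells with an Il17a UMI had 22.4% against 23.7% without one in the pool, and 21% against 24.5% in the IL-18R- CD103- GFP- labelled library, where Il17a had only 2 UMIs in all gamma delta T cells with a Ccr7 UMI. ILC2 with a UMI of the type 2 cytokine genes Il5 or Il13 had 28.6% (28.1 to 29.1, 367 cells) against 29.8% (29.3 to 30.4, 790 cells). The cycling split took all cells outside the myeloid, B, stroma and endothelium gates, including cells in no gate or in several. Those with at least 5 UMIs of cycling genes had 21.7% (49 cells) against 23.2% in the pool. They had 21.1% (19 cells) against 23.2% in the IL-18R- CD103- GFP- labelled library. In the IL-18R- ST2+ library they had 20.6% (18.2 to 25.7, 12 cells) against 29.6% (29.4 to 29.9), the widest gap of these splits. The cycling cells were also more deeply sequenced, with median UMIs per cell of 14255 against 4937, 9392 against 4765.5 and 11730 against 4562. Unlike the Ccr7 split, the cycling split was not repeated on thinned counts. These splits too were chosen after the data had been seen.

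Between libraries the members moved mostly together. From the pool to the IL-18R- ST2+ library, 74 of 79 members were higher, with a median ratio of 1.27, and 42 members (53.2%) were at least 25% higher, as were 12.6% of the 5930 genes measured. Only 3 members were at least 20% lower, against 48.4% of measured genes, and 2 of these, Rps27l and Rps19bp1, had a ratio of at most 0.5, against 12.3% of measured genes. The median log2 ratio was 0.34 for members and -0.30 for all measured genes. Under TMM scaling, which shifts all genes alike by 0.28 on the log2 scale, 74 members were at least 25% higher and 2 at least 20% lower. The shares of all measured genes past these folds were not counted under that scaling. No member reached a ratio of 2 on library totals in any pair, where 4.33% of measured genes did in this one, 2.55% in the pool over the IL-18R- CD103- GFP- labelled library and 5.4% in IL-18R- ST2+ over that library. In the ILC2 gate of the IL-18R- ST2+ library against the pool's gamma delta T cells, 39 members (49.4%) were at least 25% higher, where 15.9% of measured genes were, and 4 were at least 20% lower, where 46% of measured genes were.

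From the IL-18R- CD103- GFP- labelled library to the IL-18R- ST2+ library, 67 members were higher, with a median ratio of 1.12. At least 25% higher were 11 members (13.9%), close to the 14.7% of the 5736 genes measured, and 3 members were at least 20% lower, against 38.6% of measured genes. TMM scaling made 37 members at least 25% higher. Without cells holding a Ccr7 UMI, an alternative added after the data were seen, the median ratio was 1.23 and 36 members were at least 25% higher. For this pair the share of all measured genes past the fold was counted under neither setting.

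The pool lay under the IL-18R- CD103- GFP- labelled library for 69 members, with a median ratio of 0.90. No member was at least 25% higher, against 15.7% of the 5812 genes measured, and 11 members (13.9%) were at least 20% lower, against 5.42% of measured genes. TMM scaling made 30 members at least 20% lower. Without cells holding a Ccr7 UMI, 7.07% of pool cells and 13.7% of cells in the IL-18R- CD103- GFP- labelled library, the median ratio was 0.98, with 30 members above 1 and 49 below, and 6 members at least 20% lower. Here too the share of all measured genes past the fold was counted under neither setting. Within gamma delta T gated cells the family's summed share had a ratio of 0.905 (0.902 to 0.907), and of 0.991 (0.988 to 0.994) among those without Ccr7. Within alpha beta T gated cells it was 0.741 (0.737 to 0.745), with 54 members (68.4%) at least 20% lower against 16.8% of measured genes. Among those without Ccr7 it was 0.848 (0.842 to 0.855), with 17 members (21.5%) at least 20% lower, near the 23% of measured genes. The median shares of these cells were 23.7% (23 to 24.8) in 153 pool cells and 24.9% (23.2 to 27.9) in 59 of the other library. Those intervals overlap, and the interval of the summed ratio counts UMIs only. The 3 pairs of libraries share libraries and are not independent of each other. Small and large subunit genes had near-equal median ratios in each pair: 0.88 and 0.90 for the pool over the IL-18R- CD103- GFP- labelled library, 1.28 and 1.254 for IL-18R- ST2+ over the pool, and 1.12 and 1.12 for the third.

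**Figure D3:**
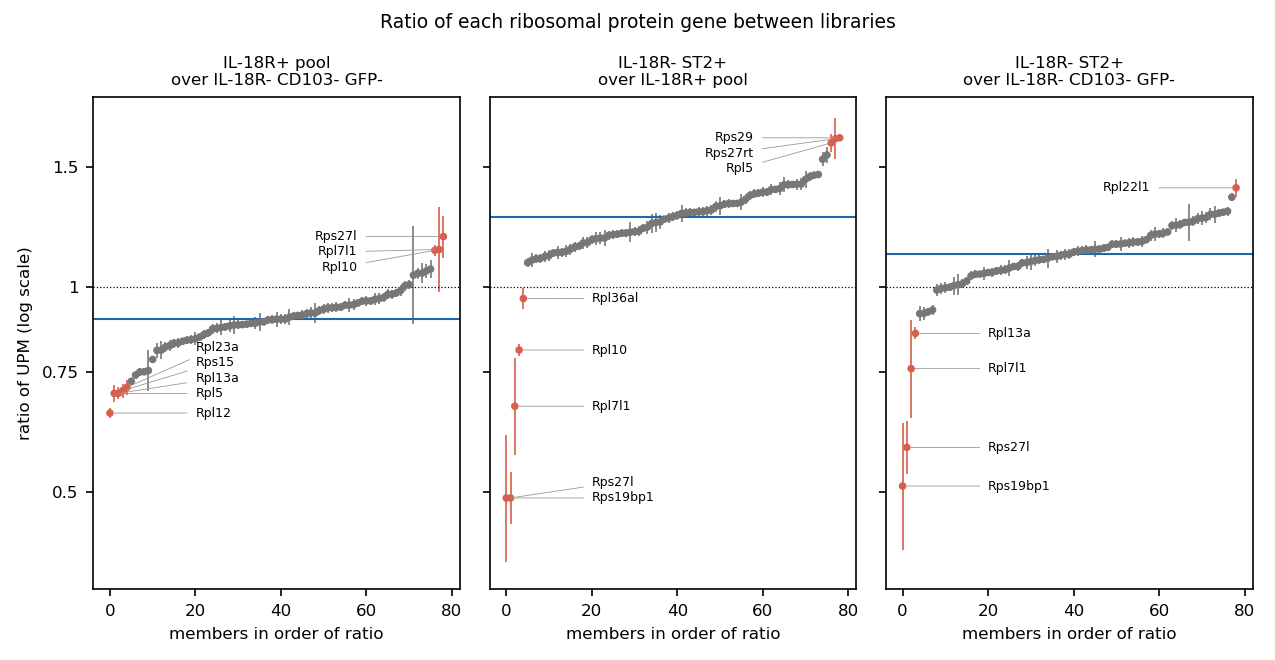
Ratio of UPM between libraries (y axis, log scale) for the 79 members in order of ratio (x axis), with bars for the 95% counting interval. The blue line is the median member and the dotted line a ratio of 1; red points with names are members that departed from the family, and in the middle panel all but 5 members lie above 1.

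Single members were read against the family: a member departed where its ratio was at least 25% above, or at least 20% below, the median member ratio of the same pair and its counting interval left out that median. Of all measured genes, 2.86% lay below the members' median in this sense for the pool over the IL-18R- CD103- GFP- labelled library and 37.8% above it. For IL-18R- ST2+ over the pool these were 75.8% and 6.64%, and for IL-18R- ST2+ over the IL-18R- CD103- GFP- labelled library 52.6% and 10.8%. Of the 79 members, 3 departed upward and 5 downward in the first of these pairs, and likewise 3 and 5 in the second. In the third, 1 departed upward and 4 downward. The downward part in the first pair was larger than the 2.86% of measured genes. Most members kept to the family's ratio, but that median comes from the members themselves.

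Rps27l, a paralog of Rps27 and a known target gene of p53, departed in all 3 pairs. It stood at 183 UPM in the pool, 154 UPM in the IL-18R- CD103- GFP- labelled library and 89.6 UPM in the IL-18R- ST2+ library, an order opposite to that of the family's summed share. Its ratio of IL-18R- ST2+ to the pool was 0.49 (0.448 to 0.536). Rps19bp1, which is no subunit, stood at 32.3, 31 and 15.8 UPM, with a ratio of 0.49 (0.394 to 0.606) for the same pair. Rpl7l1, a paralog of Rpl7, stood at 44.4, 39.1 and 29.7 UPM and also departed in all 3 pairs, in the same directions as Rps27l. These 3 genes are the lowest members by level. None of them began with a C and 4 pyrimidines at the RefSeq start shown above, but only 13 of the 60 members found there did.

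Rpl10, an X-linked large subunit protein that joins the subunit late in its assembly, was the exception among abundant members. It stood at 2267 UPM in the pool, 2002 UPM in the IL-18R- CD103- GFP- labelled library and 1832 UPM in the IL-18R- ST2+ library, while the family's share was higher in that order. Its ratio of IL-18R- ST2+ to the pool was 0.81 (0.791 to 0.826), where the median member had 1.27. The left-out pseudogene row Rpl10-ps3 stood at 34.6, 39.6 and 41.1 UPM in the same order, far below Rpl10. Whether reads of Rpl10 were counted in other rows was not tested.

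Rps29, a zinc-binding small subunit protein and the second most abundant member, departed upward in the IL-18R- ST2+ library against the pool. Its level was 6472 UPM in the pool, 8900 UPM in the IL-18R- CD103- GFP- labelled library and 10726 UPM in the IL-18R- ST2+ library, a ratio of 1.66 (1.64 to 1.67). Rpl5, which carries the 5S ribosomal RNA and can bind the p53 regulator MDM2, stood at 841, 1205 and 1370 UPM, a ratio of 1.63 (1.58 to 1.68). Rps27rt departed upward too, at 152, 202 and 252 UPM. Rpl36al, a paralog of Rpl36a, departed downward at 777, 741 and 747 UPM.

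Members of the large subunit led the departures below the family in the pool over the IL-18R- CD103- GFP- labelled library. Rpl12, a protein at the base of the ribosomal stalk, stood at 2169 UPM in the pool and 3321 UPM in the IL-18R- CD103- GFP- labelled library, a ratio of 0.65 (0.642 to 0.665). Rpl13a, also known for a role in translational silencing outside the ribosome, stood at 1660 and 2378 UPM (ratio 0.70), and Rpl23a, which lies at the peptide exit tunnel, at 1066 and 1496 UPM (ratio 0.71). Rpl5 (ratio 0.70) and the small subunit gene Rps15 (ratio 0.70) had like ratios. Above the family in this pair were Rps27l, Rpl7l1 and Rpl10, at 1.32, 1.27 and 1.26 times its median. Without cells holding a Ccr7 UMI the members that departed downward were the same 5, and none departed upward.

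In the IL-18R- ST2+ library over the IL-18R- CD103- GFP- labelled library, Rpl22l1 was the only member that departed upward, at 1150 against 822 UPM (ratio 1.399, 1.36 to 1.44). Rpl13a departed downward with a ratio of 0.86 (0.838 to 0.873), beside Rps27l, Rpl7l1 and Rps19bp1.

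The comparison of gamma delta with alpha beta T cells could be made inside 2 libraries. In the pool the members' median ratio was 0.92, with 6 members at least 20% lower (7.59%, against 17.1% of measured genes) and 1 at least 25% higher (22% of measured genes were). In the IL-18R- CD103- GFP- labelled library it was 0.76, with 57 members at least 20% lower (72.2%, against 14.9% of measured genes) and 1 at least 25% higher (37.9% of measured genes were). In that library 31 of the 90 alpha beta T cells had a Ccr7 UMI, against 19 of 172 in the pool. Of measured genes, 18.4% departed upward and 6.62% downward in the pool, and 52.2% and 2.36% in the other library. Rpl10 departed upward in both, by 1.32 times the family median in the pool and by 1.36 times in the IL-18R- CD103- GFP- labelled library. It stood at 2455 UPM in gamma delta and 2020 UPM in alpha beta T cells of the pool, and at 2050 and 1992 UPM in the other library, so in the latter its level was nearly equal while the family's was lower. In the pool Rpl28, Rpl31 and Rps27l departed downward, and in the other library Rps27l and Rps19bp1 departed upward, the last on 13 UMIs in alpha beta T cells.

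Against gamma delta T cells of the pool, the ILC2 of the IL-18R- ST2+ library had 4 members above the family (8.59% of measured genes were) and 6 below it (68.3% of measured genes). Rps6, the classic substrate of S6 kinase, stood at 1762 UPM in ILC2 and 1125 UPM in gamma delta T cells (ratio 1.57, 1.51 to 1.63). Rps29 and Rpl5 also lay above. Below lay Rps19bp1, Rpl7l1, Rps27l, Rpl10, Rpl36al and Rpl30. Against gamma delta T cells of the IL-18R- CD103- GFP- labelled library, 16 members (20.3%) were at least 25% higher, where 16.3% of measured genes were, and 3 at least 20% lower, where 40.4% were. Without the gamma delta T cells holding a Ccr7 UMI, 36 members (45.6%) were at least 25% higher, where 15.2% of measured genes were, with a median ratio of 1.23. Against all gamma delta T cells of that library, with or without a Ccr7 UMI, 11.5% of measured genes departed upward and 54.5% downward. In that contrast Rpl22l1 at 1174 against 802 UPM and Rps3a1 at 5244 against 3690 UPM departed upward. Rps19bp1, Rps27l, Rpl7l1, Rpl13a and Rpl10 departed downward there.

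The cells with a Ccr7 UMI carried more of nearly every member. In the gamma delta T gate of the IL-18R- CD103- GFP- labelled library, 77 of 79 members were higher than in cells with none, with a median ratio of 1.59, and 74 members (93.7%) were at least 25% higher, against 15.7% of measured genes. In the alpha beta T gate of the same library 78 members were higher, with a median ratio of 1.43, and 71 members (89.9%) were at least 25% higher, against 21% of measured genes. No member departed upward in gamma delta T cells, and 2 did in alpha beta T cells. Rps20, a small subunit protein, stood there at 9180 against 5080 UPM (ratio 1.81, 1.7 to 1.92) and Rpl12 at 6005 against 3336 UPM (ratio 1.8, 1.67 to 1.94). Rps18, a protein of the head of the small subunit, stood at 6924 against 3594 UPM in gamma delta T cells (ratio 1.93, 1.87 to 1.98) and at 7609 against 4397 UPM in alpha beta T cells (ratio 1.73, 1.62 to 1.85), within the family by the limit in both. In the alpha beta T gate of the pool, with 19 such cells, 77 members were higher, with a median ratio of 1.37, and 65 members (82.3%) were at least 25% higher, against 27.1% of measured genes. Of measured genes 3.24% departed upward and 79.5% downward in the gamma delta T gate of the IL-18R- CD103- GFP- labelled library, and 0.842% and 36.2% in its alpha beta T gate.

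Departing downward were 5 members in gamma delta and 1 in alpha beta T cells. Rpl13a stood at 2883 against 2359 UPM in gamma delta T cells (ratio 1.22, 1.17 to 1.27), under the family, and at 3248 against 2677 UPM in alpha beta T cells (ratio 1.21, 1.1 to 1.33), within it by the limit. Rpl10 was under it in gamma delta T cells, at 2172 against 2026 UPM (ratio 1.07, 1.02 to 1.12), and within it in alpha beta T cells. Rps27l in gamma delta T cells stood at 129 against 154 UPM (ratio 0.84, 0.692 to 1.01), a level not higher while the median member was 1.59 times higher. Rpl7l1 and Rps19bp1 departed downward in gamma delta T cells on 40 and 34 UMIs in the cells with Ccr7. In alpha beta T cells Rpl22l1 departed downward at 1304 against 1144 UPM (ratio 1.14, 0.983 to 1.32). Departing in 1 gate and not in the other is no test of a difference between gates.

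**Figure D4:**
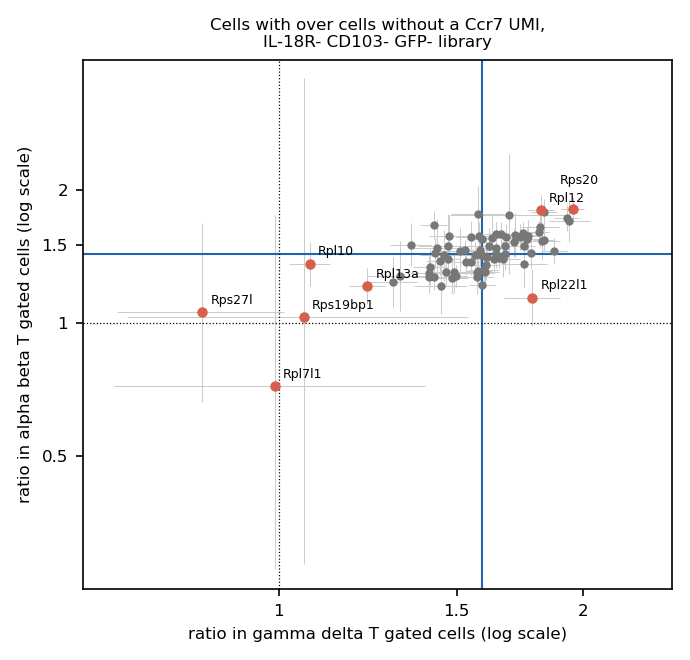
Ratio of UPM in cells with over cells without a Ccr7 UMI for the 79 members in gamma delta T gated cells (x axis, log scale) and alpha beta T gated cells (y axis, log scale) of the IL-18R- CD103- GFP- labelled library, with 95% counting intervals. Blue lines are the median members (1.59 and 1.43) and dotted lines a ratio of 1; red named members departed from the family in 1 of the gates, with Rps20 and Rpl12 at the upper right and Rps27l, Rpl7l1 and Rps19bp1 near or below 1 on the x axis.

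Stroma and endothelium gated cells of the pool, 53 cells with 178811 UMIs, had the lowest share, and their members differed unequally from those of the pool's gamma delta T cells. The family ratio was 0.251 (0.246 to 0.255), and 76 members were at least 20% lower, against 29.7% of measured genes. The members named here were chosen after their values were seen. Rpl12 was the lowest at 319 against 2440 UPM (ratio 0.13, 0.099 to 0.169), followed by Rps24 at 1365 against 8828 UPM. Rpl41, the smallest ribosomal protein, was the least lowered of the members at or above 1000 UPM in these cells, at 3165 against 4678 UPM (ratio 0.68, 0.621 to 0.736). Rps27l was higher, at 201 against 131 UPM (ratio 1.54, 1.06 to 2.16).

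CD3-negative cells with Il18r1 and Tcf7 had nearly the same total as gamma delta T cells of the pool, with a family ratio of 0.981 (0.976 to 0.986), and most members kept to the family's ratio. Above the family were 7 members (22.3% of measured genes were), among them Rps27l at 242 against 131 UPM (ratio 1.85, 1.56 to 2.18), Rpl28 at 2901 against 2033 UPM, and Rpl22l1, Rpl31, Rpl3 and Rpl24. Below were 6 members (17% of measured genes), with Rpl12 at 1765 against 2440 UPM and Rps27 at 4476 against 6125 UPM, and also Rpl30, Rps24, Rpl37a and Rpl7l1. This contrast was added after the data were seen.

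Paralog pairs give a ratio within the same cells that library scaling cannot move. Rpl22l1 made up 29.6% (29 to 30.1) of the UMIs of Rpl22 and Rpl22l1 in the pool, 27.1% (26.6 to 27.7) in the IL-18R- CD103- GFP- labelled library and 32.3% (31.7 to 32.8) among IL-18R- ST2+ cells. Loss of Rpl22 in mice is known to block alpha beta and spare gamma delta T cell development. Alpha beta T cells had 31.3% (29.7 to 32.9) and 31.6% (29.7 to 33.6) in the pool and the IL-18R- CD103- GFP- labelled library, above gamma delta T cells at 26.8% (25.9 to 27.7) and 26.7% (26 to 27.3), with intervals that did not overlap in either library. ILC2 had 32.8% (32.1 to 33.4). CD3-negative cells with Il18r1 and Tcf7 had 32.9% (31.2 to 34.6) in the pool but 19.8% (17 to 22.8) in the IL-18R- CD103- GFP- labelled library, so the same gate differed between libraries.

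Rps27l made up 3.15% of Rps27 and Rps27l UMIs in the pool, 2.01% in the IL-18R- CD103- GFP- labelled library and 1.13% in the IL-18R- ST2+ library. Within the pool its share was 2.09% (1.9 to 2.3) in gamma delta T cells, 5.13% (4.48 to 5.83) in CD3-negative Il18r1 and Tcf7 cells, 10.6% (8.79 to 12.6) in myeloid cells, 13.4% (9.59 to 18.1) in stroma and endothelium and 0.615% (0.2 to 1.43) in B cells. Rpl36al made up 38.1%, 33.8% and 29.5% of its pair in the 3 libraries, with 54.3% (49.4 to 59.1) in the pool's myeloid cells and 28.9% (28.2 to 29.7) in ILC2. Rpl7l1 made up 2.42%, 1.96% and 1.17% of its pair. Rps27rt, whose sequence is nearly that of Rps27, made up 2.64%, 2.63% and 3.11%, and between 2.11% and 3.09% in all gates counted. Reads of such near-identical copies could be split in the authors' counting, so the level of Rps27rt is uncertain.

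**Figure D5:**
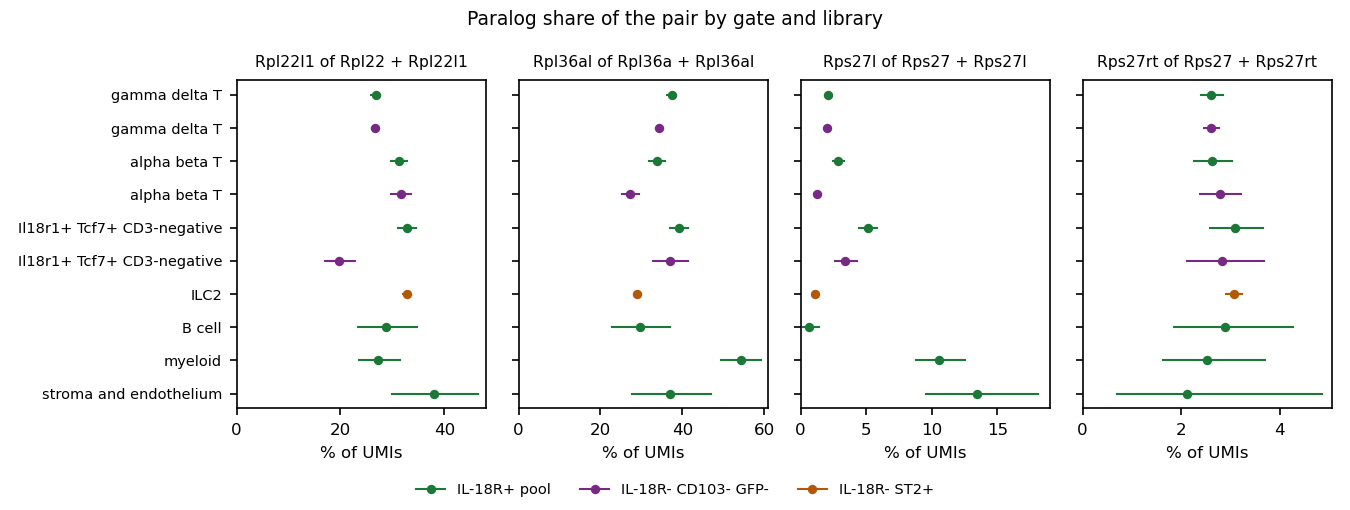
Share of the UMIs of a pair that fall to the second gene (x axis, percent, starting at 0 in each panel) by gate (y axis) and library (colour), with 95% counting intervals, for 4 pairs. Rps27l ranges from 0.615% in B cells to 13.4% in stroma and endothelium, while Rps27rt lies between 2.11% and 3.09%.

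The genes around the ribosome did not all go with the family. The lists that follow are given for IL-18R- ST2+ over the pool, where 12.6% of all measured genes were at least 25% higher and 48.4% at least 20% lower. Of 6 ribosomal protein genes outside the symbol rule, 3 were at least 25% higher in IL-18R- ST2+ than in the pool, with Rplp1, a stalk protein, at 8720 against 5673 UPM (ratio 1.54), and their median log2 ratio was 0.31. None of the 6 was at least 20% lower. Of 23 translation factors of the TOP mRNA class, 5 were at least 25% higher and 2 at least 20% lower, with a median log2 ratio of 0.14. Eef1g, a subunit of the elongation factor that loads tRNA, stood at 420 against 263 UPM, and Eif3a, a scaffold of the initiation factor eIF3, at 204 against 283 UPM.

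Of 26 measured ribosome biogenesis genes, 2 were at least 25% higher and 12 at least 20% lower in the same pair, with a median log2 ratio of -0.23, near the -0.30 of all measured genes. Under TMM scaling this median turned to 0.05. Bysl, which helps to build the small subunit, stood at 9.38 against 22.6 UPM, and Polr1a, the largest subunit of RNA polymerase I, at 37.1 against 18.6 UPM. Of 10 snoRNA host genes 3 were at least 25% higher and 3 at least 20% lower, with Snhg15 at 223 against 142 UPM and Snhg5 at 14.8 against 29 UPM. Of 17 measured regulators 2 were at least 25% higher and 6 at least 20% lower, no more than among all measured genes. Myc, an activator of ribosome production, stood at 50.9 UPM in the IL-18R- ST2+ library, 15.2 UPM in the pool and 17.1 UPM in the IL-18R- CD103- GFP- labelled library (ratio over the pool 3.36, 2.76 to 4.11). Eif4ebp1, an mTOR-controlled inhibitor of cap-dependent initiation, stood at 13.1, 32 and 28.4 UPM in the same order, and Eif4e, the cap-binding factor, at 39.2, 72.8 and 61 UPM. Between IL-18R- ST2+ and the pool, Bysl, Polr1a, Snhg5, Myc and Eif4ebp1 reached the minimum of 20 UPM only on their higher side.

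Other large gene groups were read in the same pair, against the same 12.6% and 48.4% of measured genes. Of 76 measured nuclear oxidative phosphorylation genes 1 was at least 25% higher and 21 at least 20% lower, with a median log2 ratio of -0.20, against the -0.30 of all measured genes and the 0.34 of the ribosomal proteins. TMM scaling turned this median to 0.08. Cycling genes had a median log2 ratio of -2.56 in 6 measured genes. Only 1 cycling gene was measured in IL-18R- ST2+ over the IL-18R- CD103- GFP- labelled library. Most of the 6 thus passed the minimum only through the pool, where they were high, and a low ratio follows in part from that. Immediate early and heat shock genes, which follow tissue digestion, had -0.08 in 15 genes, with 4 at least 25% higher and 6 at least 20% lower. Across gamma delta T cells the ribosomal protein share had a Spearman rho of -0.21 (706 pool cells) and -0.45 (1223 cells of the IL-18R- CD103- GFP- labelled library) with the share of immediate early and heat shock UMIs, and of -0.24 and -0.44 with that of Malat1. All these shares have the same denominator. The part of these groups in the ribosomal protein share was not tested.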

How the data were processed

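The deposited matrices hold raw counts, per the file headers: integer numbers of UMIs for each gene in each barcode. The authors used Cell Ranger 6.0.1 and mm10, per the submitters' processing notes. Cells under 500 genes or over 10% mitochondrial UMIs were left out, as were 26 Scrublet calls (scanpy 1.11.5), leaving 5138 of 5351 barcodes. With so few calls, doublets are treated as not removed. Counts were summed per library or gate and scaled to UPM. Sums have Poisson, shares Clopper-Pearson and ratios conditional binomial 95% intervals, and medians order-statistic intervals. A gene was measured in a pair at 20 UPM in either side, and sums were raised to 3 UMIs in ratios over all genes. With 1 library per group nothing was tested. Intervals and folds were tested on simulated data. Alternatives changed cell filters, denominators, scaling, gates and centres. Members and lists were chosen with earlier results of these data known. Named genes were the 10 highest and 3 lowest members, departing members, paralog pairs and, per list, up to 4 genes of largest log2 ratio, of which some are printed. Some genes are not reported here. No barcode was corrected for free RNA. The RefSeq promoter table matched 60 members by symbol.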

Additional observations from a re-analysis of the deposited data

Results flagged for a closer look

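Relative to the family, Rps27l went in opposite directions in the 2 libraries for the same contrast of lineages. Its ratio of gamma delta to alpha beta T cells, divided by the median member ratio, was 0.735 within the pool (441 and 199 UMIs) and 1.5 within the IL-18R- CD103- GFP- labelled library (908 and 79 UMIs). That median was 0.92 in the pool and 0.76 in the other library, and dividing by the latter raises the value. In the latter library 31 of the 90 alpha beta T cells had a Ccr7 UMI. With 1 library each the difference between the libraries was not tested.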

How the results depend on the processing

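No paired analysis was possible because each group has 1 library. Of the 24 values and counts tried with TMM scaling, 12 stayed within their interval or within 1.5 times the count, as did 11 with median of ratios scaling. The first pair is the pool over the IL-18R- CD103- GFP- labelled library, the second IL-18R- ST2+ over the pool, and the third IL-18R- ST2+ over the IL-18R- CD103- GFP- labelled library. With TMM the members' median log2 ratios in these pairs were -0.29, 0.63 and 0.31, and with median of ratios -0.30, 0.66 and 0.33. Members at least 20% lower in the first pair numbered 30 and 35, members at least 25% higher in the second 74 and 74 and in the third 37 and 42. Members at or above 2 in the second pair numbered 2 and 3 and those at or under 0.5 numbered 0 and 0. For neither scaling was the share of all measured genes past these folds counted. The ribosome biogenesis list's median log2 ratio turned in the second pair, to 0.048 and 0.085, and was -0.11 and -0.12 in the first. The TOP class translation factors had 0.42 and 0.45 in the second and 0.25 and 0.28 in the third. The ribosomal protein genes outside the symbol rule had 0.63 in the second with median of ratios. These scalings set each library by its other genes, and the cause of the shift was not tested.

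Leaving mitochondrial genes and Malat1 out of the denominator gave median shares of 24.2% (pool), 31.7% (IL-18R- ST2+) and 24.6% (the IL-18R- CD103- GFP- labelled library), and by gate 24.2% and 24.6% in gamma delta T cells, 25.4% in the pool's alpha beta T cells and 31.4% in ILC2. This follows from the changed sums. A wider list of family members was set out at the start and is not reported here. With measurement at 100 UPM, 1 member lay at least 20% lower in the second pair, 1 at or under 0.5 and 1 at least 20% lower in the third, since fewer genes were counted. A mitochondrial maximum of 5% left 1 at or under 0.5 in the second pair. Scaling each cell to the same total left 2 departures between lineages in the pool, from 4; the cause was not tested.

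Leaving out cells with a Ccr7 UMI, chosen after the data were seen, gave a median share of 22.3% in the IL-18R- CD103- GFP- labelled library, with 22.3% in its gamma delta and 24.9% in its alpha beta T cells. The first pair then had a median log2 ratio of -0.029, with 6 members at least 20% lower and 5 departing from the family. The third had 0.30 and 36 members at least 25% higher. For these pairs the share of all measured genes past the folds was not counted without such cells. Other cell filters, thinning, kept Scrublet calls, raised gates, a centre from summed UMIs and a minimum of 1 UPM left every value within its interval and every count within 1.5 times. Variation between animals could not be measured.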
